A study of Homo sapiens with 4 samples.

Results

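Kinesins, dyneins and myosins are the motor proteins that move cargo along microtubules and actin filaments, and their cassette exons are described here in HEK293T cells with and without the splicing regulator RBFOX2. The members were the cassette exon events whose gene symbol marks a kinesin heavy chain (KIF), a kinesin light chain (KLC), a subunit of cytoplasmic dynein (DYNC, DYNL) or dynactin (DCTN), or a myosin heavy or light chain (MYO, MYH, MYL). The rule found 206 of the 31408 events in the authors' deposited table, in 66 of its 9172 genes. These events covered 189 of 27483 unique exons. A cassette exon can be spliced in between its neighbours or left out, and the same exon has a separate event for every pair of neighbouring exons.

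HEK293T cells are an established line from human embryonic kidney. The study has 4 libraries of total RNA, made strand-specific after removal of ribosomal RNA: 2 from wild-type clones and 2 from RBFOX2 knockout clones, a gene also called RBM9. All 4 clones went through the same steps, transfection with the Cas9 plasmid PX459 and the plasmid pgRGFP carrying guides on either side of RBFOX2, sorting of single cells and genotyping by PCR. Each library therefore stands for 1 clone, and differences between clones and between genotypes cannot be told apart beyond what 2 clones per genotype allow.

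The authors' deposited table compares a first with a second set of 2 libraries each, and the labels do not say which set is which genotype. Directions are given as first or second set, never as gain or loss on knockout. The table's per-library columns match no clone's label and were left aside, so no spread between clones and no read depth stands beside a difference. RBFOX2 itself has 0 events in the table, so its own splicing is no check of the knockout.

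Motors of these families have a head that hydrolyses ATP, and most walk on their track. In many of them a tail or light chain selects the cargo. Kinesins mostly walk towards microtubule plus ends, cytoplasmic dynein with its cofactor dynactin walks towards minus ends, and myosins walk on or contract actin. RBFOX proteins bind the RNA element GCATG and change the inclusion of nearby exons, and alternative exons in motor genes often alter the tail, the neck or a surface loop of the head.

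A selection of the called exons is shown first, 5′ to 3′ on the transcribed strand, with sequences read from GENCODE 29 transcripts and positions from the deposited table (hg19, per the submitters' processing notes). The first group holds called exons of the kinesins KIF21A, KIF3A and KIF24, the light chain KLC1 and the myosin MYO9B. They show how unlike in length and composition the called exons are. None of those shown contains GCATG within the exon, which would be in capitals. The KIF24 exon begins with catg, and whether the base before it completes the element was not checked. The element does occur in 2 called motor exons that are not shown, among them the 959-nt exon of KIF27.
MYO9B, 48 nt, plus strand, chr19:17321142-17321189: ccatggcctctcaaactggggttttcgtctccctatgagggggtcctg
KIF3A, 9 nt, minus strand, chr5:132042143-132042151: atcaagcag
KIF3A, 99 nt, minus strand, chr5:132046651-132046749: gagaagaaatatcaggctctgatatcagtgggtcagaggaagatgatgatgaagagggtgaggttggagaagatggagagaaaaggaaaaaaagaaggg
KIF21A, 129 nt, minus strand, chr12:39711875-39712003: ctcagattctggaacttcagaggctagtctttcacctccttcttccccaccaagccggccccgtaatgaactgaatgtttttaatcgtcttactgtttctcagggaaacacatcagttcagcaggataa
KIF24, 98 nt, minus strand, chr9:34297015-34297112: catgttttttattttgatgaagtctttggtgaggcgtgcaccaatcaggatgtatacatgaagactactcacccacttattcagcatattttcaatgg
KLC1, 131 nt, plus strand, chr14:104153418-104153548: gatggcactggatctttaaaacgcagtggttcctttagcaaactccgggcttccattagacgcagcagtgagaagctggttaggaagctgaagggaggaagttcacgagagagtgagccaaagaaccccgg

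The next sequence shows exons that overlap. In MYL6, a 144-nt exon is listed whole and also in its parts, a 36-nt exon (in capitals) and the 108-nt remainder.
MYL6, 144 nt, plus strand, chr12:56553371-56553514: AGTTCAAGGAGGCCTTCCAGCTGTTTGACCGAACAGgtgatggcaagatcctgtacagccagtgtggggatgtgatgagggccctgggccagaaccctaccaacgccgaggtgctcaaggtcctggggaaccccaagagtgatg

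An event was called where the authors' deposited table gave a false discovery rate (FDR) under 0.05 and an absolute difference in inclusion level of at least 0.1. Inclusion is a share within an event, between the forms with and without the exon for that pair of neighbours, and not of all transcripts of the gene. It runs from 0, with the exon always left out, to 1, with it always spliced in. It is estimated from junction reads with a correction for effective length. Of the 206 motor events, 13 were called (6.31%), beside 5.15% of all events in the table. They fell on 12 exons (6.35% of the motor exons, against 5.73% of all exons) in 10 of the 66 genes (15.2%, against 13.7% of all genes). The motor genes as a group were thus close to the background, and no statement about the family as a whole rests on these counts.

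The called exons went in both directions. Inclusion was higher in the first set for 8 exons, among them those of KIF3A, KIF21A, KIFC3, KLC1 and MYL6 (background 3.08% of exons in this direction). It was higher in the second set for 4 exons, those of MYO9B, KIF27, KIF24 and KIF23 (background 2.65%). By event the split was 8 (background 2.77%) to 5 (background 2.38%), since 1 KLC1 exon was called in both directions. Without a minimum difference, 16 motor events had an FDR under 0.05 (7.77%, beside 6.12% of all events). The median absolute difference in the authors' deposited table was 0.286 for the called motor exons, from 0.161 to 1, and 0.271 for all called exons. Over all 206 motor events called or not, the median absolute difference was 0.047, against 0.048 over the table.

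**Figure D1:**
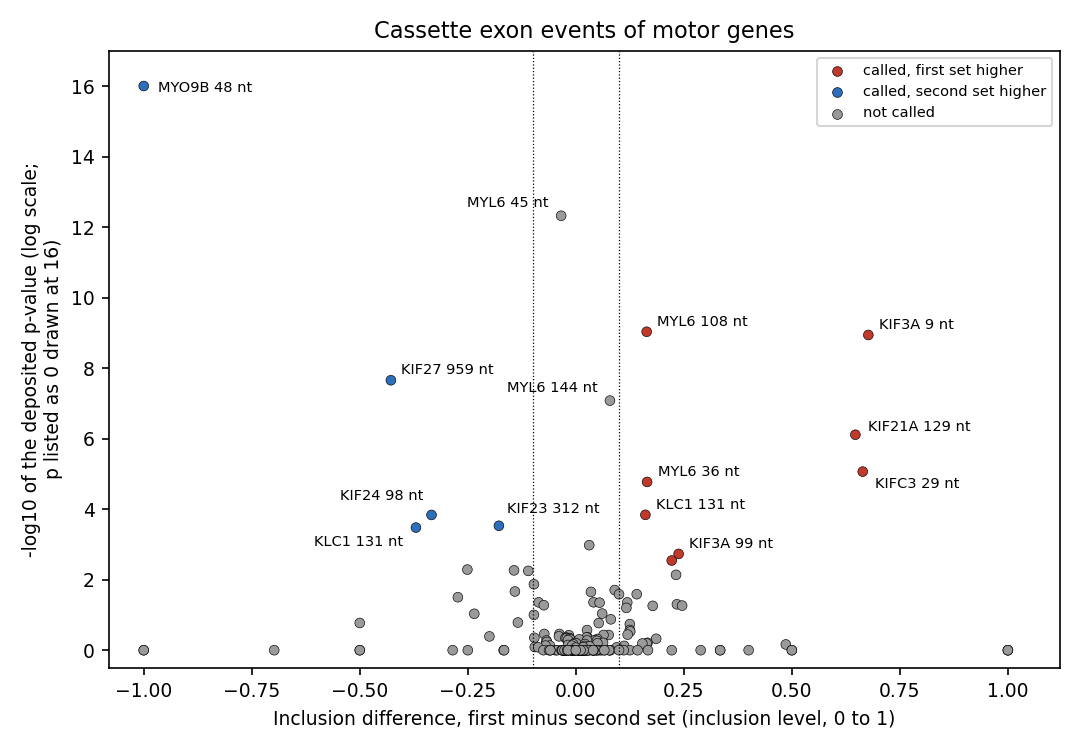
Each point is one of the 206 motor events in the authors' deposited table, with the inclusion difference (first minus second set) on the horizontal axis and minus log10 of the p-value on the vertical axis. Dotted lines mark a difference of 0.1 in either direction; MYO9B, at -1, is at the top because its p-value is listed as 0 and is drawn at 16, and the MYL6 45-nt exon has a low p-value at a difference of -0.034.

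Kinesin heavy chains, the motor subunits of kinesins, held 7 of the 13 called events, out of 79 events in 30 genes (8.86%, beside 5.15% in the table). The called genes were KIF3A, KIF21A, KIFC3, KIF27, KIF24 and KIF23. The median absolute difference of the 79 events was 0.064.

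KIF3A (ENSG00000131437) is a heavy chain of kinesin-2, the motor of anterograde transport in cilia, and it had 2 called exons. For its 9-nt exon, the authors' deposited table gave a difference of 0.677 with FDR = 1.95e-07, higher in the first set. This exon, shown above, adds 3 codons and is exon 10 of 18 in the matched transcript, where it touches codons 410 to 413 of 702. Its effective length for inclusion reads was 103 nt against 94 nt for skipping, the shortest inclusion form among the called motor events.

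The 99-nt KIF3A exon is the upstream neighbour of the 9-nt exon in the event just described. In its own event, the 99-nt exon is followed directly by the 157-nt exon that also follows the 9-nt exon. The authors' deposited table listed the 99-nt exon at 0.238 with FDR = 0.0342, also higher in the first set. Its junction to the 157-nt exon is also the skipping junction of the 9-nt event, so these events are not separate observations. Both KIF3A exons keep the reading frame, and in their matched transcripts they lie between codons 377 and 413, after the N-terminal motor head. A listed 72-nt exon lies between them in the gene. The other KIF3A events were not called. A 69-nt exon had 0.063 at p = 0.618, and the 72-nt exon had -1 at p = 1, in the authors' deposited table.

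KIF21A (ENSG00000139116), a kinesin that limits microtubule growth at the cell cortex, had 1 called event of 6. In the authors' deposited table, its 129-nt exon, joined to a 108-nt exon before and a 137-nt exon after it, had a difference of 0.647 with FDR = 5.2e-05. The exon touches codons 1240 to 1283 of 1637 in the matched transcript, in the C-terminal part of the protein. When the same exon is followed by a 39-nt exon instead, the authors' deposited table gave 0.125 at p = 1.

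The 39-nt KIF21A exon itself had the opposite sign. With the 129-nt exon as its upstream neighbour it was listed at -0.5 at p = 0.169, and with the 108-nt exon at -0.075 at p = 1, in the authors' deposited table. Neither value was called. Both events share junctions with the called event of the 129-nt exon, so their signs are not separate observations. The remaining KIF21A exons, of 204 and 196 nt, had 0.019 and 0.04, both at p = 1 in the authors' deposited table.

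KIFC3 (ENSG00000140859), a minus-end directed kinesin with its motor at the C-terminus, had a called 29-nt exon (chr16:57793037-57793065, minus strand). The authors' deposited table gave it a difference of 0.664 with FDR = 0.000407, higher in the first set. It is exon 19 of 20 in the matched transcript, and 2 of its 29 bases are coding there, with the rest untranslated. Of the other 5 KIFC3 events none was called; their differences in the authors' deposited table ran from -0.167 to 0.4, each at p = 1.

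In the kinesins KIF27, KIF24 and KIF23 the second set was higher. KIF27 (ENSG00000165115), a kinesin-4 relative of KIF7 with a role in motile cilia, has a single event. The authors' deposited table listed its 959-nt exon (chr9:86517975-86518933, minus strand) at -0.428 with FDR = 2.38e-06. This exon touches codons 167 to 486 of 1401, reaching from the N-terminal motor head into the stalk, and its length is not divisible by 3. Both forms, with and without the exon, are annotated in GENCODE 29.

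KIF24 (ENSG00000186638), a kinesin-13 that remodels centriolar microtubules, had a difference of -0.334 with FDR = 0.00436 for its 98-nt exon in the authors' deposited table. The exon touches codons 272 to 304 of 1368, its length is not divisible by 3, and the form without it is not among the GENCODE 29 transcripts. A further KIF24 exon, of 216 nt, was listed at -0.067 at p = 0.584 in the authors' deposited table.

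KIF23 (ENSG00000137807), also called MKLP1, is the kinesin of the central spindle in dividing cells. Its 312-nt exon (chr15:69733107-69733418, plus strand) is the one that distinguishes the longer CHO1 form, which also binds actin, from the shorter one. The authors' deposited table gave this exon -0.178 with FDR = 0.00776. It is exon 18 of 23, touches codons 690 to 793 of 960 and keeps the frame. A 42-nt KIF23 exon, with -0.097 at p = 0.0135, and a 79-nt exon, with 0.09 at p = 0.0197 in the authors' deposited table, were not called.

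Among the uncalled kinesin heavy chain events with the lowest p-values were those of KIF2C and KIF20A, both mitotic kinesins. KIF2C, a microtubule depolymerase, passed the FDR limit with 0.0218 but had a difference of 0.031 for its 123-nt exon in the authors' deposited table. KIF20A, a kinesin of cytokinesis, had -0.11 for a 199-nt exon at FDR = 0.0797 in the authors' deposited table.

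**Figure D2:**
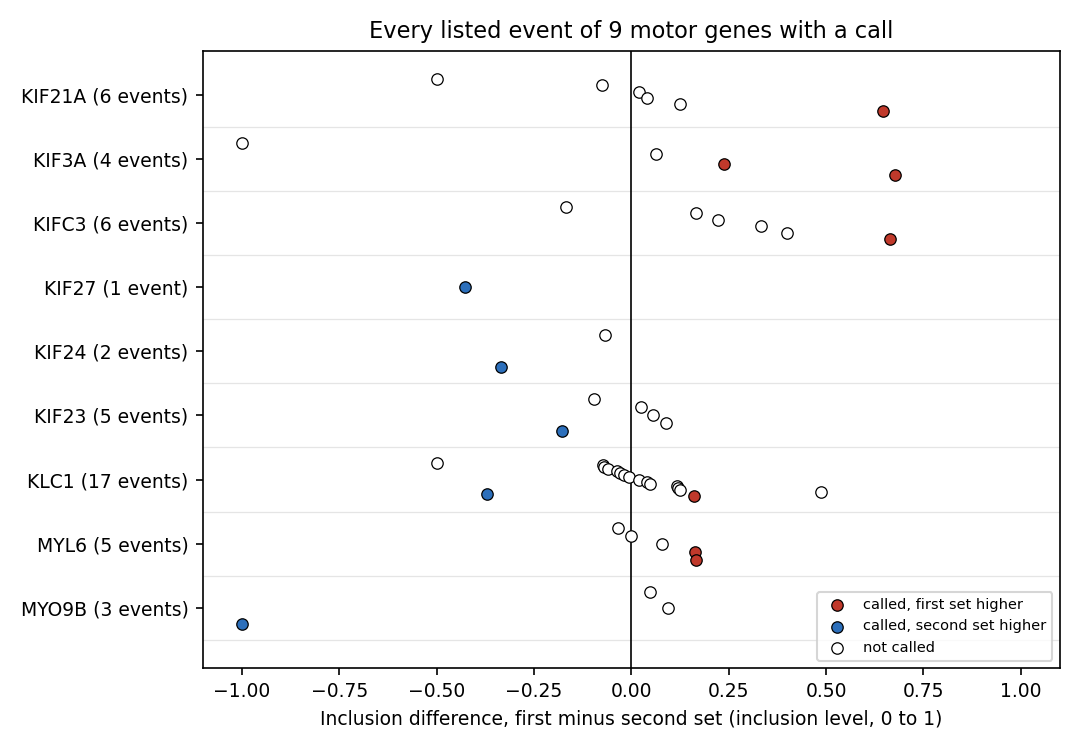
Every event of 9 motor genes with a call is drawn by gene, with the inclusion difference (first minus second set) in the authors' deposited table on the horizontal axis; filled points are called and open points are not. KLC1 has filled points on both sides of 0, at 0.161 and -0.37, and MYO9B has 1 of its 3 events at -1 and the other events near 0.

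Kinesin light chains bind cargo for kinesin-1, and 19 of the listed events fell in KLC1, KLC2 and KLC4, 2 of them called (10.5%, beside 5.15%). Both were in KLC1 (ENSG00000126214), whose alternative C-terminal exons give light chains with different tails, and both concern the same 131-nt exon, shown above. With a 237-nt exon before it, the authors' deposited table gave this exon 0.161 with FDR = 0.00435, higher in the first set. With a 135-nt exon before it, across an intron of 7562 nt in place of 7535 nt, the authors' deposited table gave -0.37 with FDR = 0.00853, higher in the second set.

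The direction for the KLC1 exon thus depended on its neighbour. The other 3 events of this exon had differences of -0.06, -0.028 and 0.041 in the authors' deposited table, and none was called. Its length is not divisible by 3, and it starts at codon 551 of 618 in one matched transcript and at codon 542 of 609 in the other. The 17 KLC1 events fall on 5 exons and share junctions, so they are not independent. KLC2 and KLC4 had 1 event each, at -0.013 and -0.031, both at p = 1 in the authors' deposited table.

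No call was made in dynein or dynactin. Dynein heavy, intermediate and light intermediate chains had 27 events, dynein light chains 3 and dynactin 14, together 44 events in 15 genes with 0 called, beside 5.15% in the table. Of the 44, 1 event (2.27%, against 12% of all events) had an unadjusted p-value under 0.05 in the authors' deposited table. That event, a 146-nt exon of DCTN1, had a difference of 0.041 at p = 0.0437 in the authors' deposited table. DCTN1 is the large dynactin subunit p150Glued, which contacts dynein and the microtubule.

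Differences in dynein and dynactin were mostly small as well as uncalled. Their median absolute difference was 0.0195, against 0.048 for the table, and 41 of the 44 events were under 0.1 (93.2%, against 68.5% of all events). The 7 events of DYNC1H1, the heavy chain of cytoplasmic dynein 1, lay between -0.008 and 0.012 in the authors' deposited table. Those of DYNC2H1, the heavy chain of the ciliary dynein 2, lay between -0.03 and 0.076 in the authors' deposited table, and those of the intermediate chain gene DYNC1I2 between -0.062 and 0.021. The exceptions at 0.1 or more were DYNC1I1 (1 at p = 1), DYNC2LI1 (0.289 at p = 1) and a 64-nt exon of DCTN1 (0.186 at p = 0.474) in the authors' deposited table. Since read depth was not used, a p-value of 1 does not show that inclusion was alike in the sets.

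**Figure D3:**
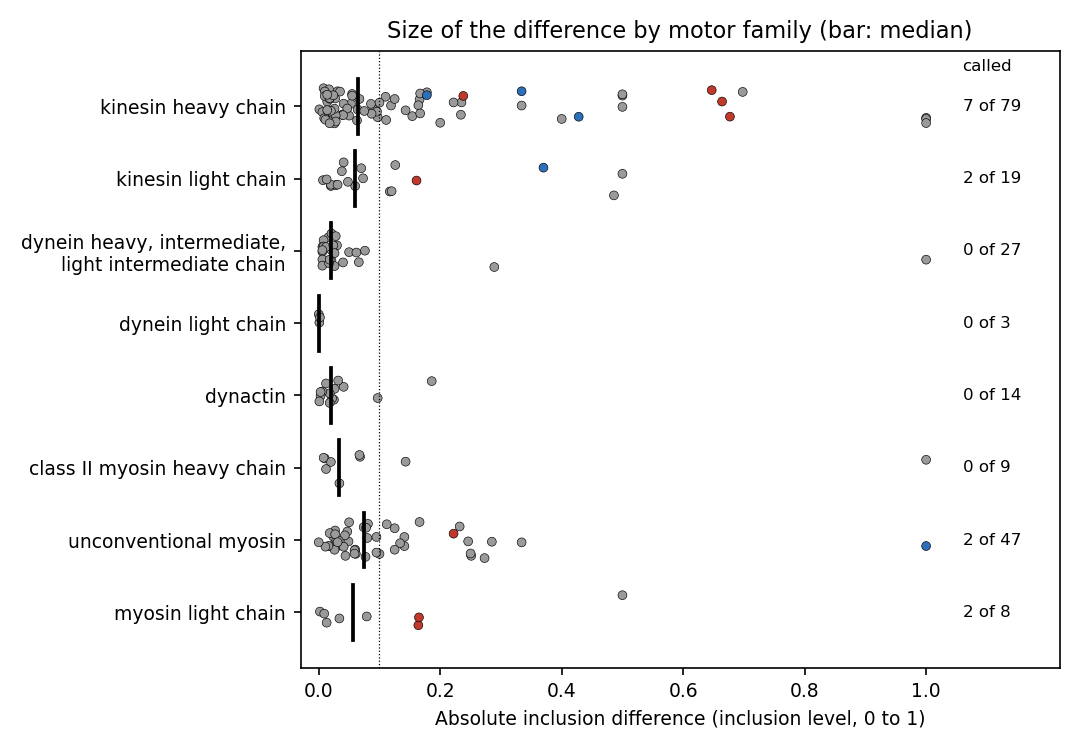
Absolute inclusion differences in the authors' deposited table are plotted for every motor event by family, with called events in red (first set higher) or blue (second set higher), others in grey, and a bar at each family's median; points are spread vertically at random for legibility. Dynein and dynactin points lie mostly under the dotted line at 0.1, with 0 called. Kinesin heavy chain points spread more widely, with 7 of 79 called. In both groups the points at 1, among them DYNC1I1, were not called.

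Unconventional myosins, which carry cargo or tether membranes to actin, had 47 events in 12 genes, of which 2 were called (4.26%, beside 5.15%). MYO9B (ENSG00000099331) is a class IX myosin. Its 48-nt exon stood at -1 in the authors' deposited table, meaning that the mean level was 0 for the first and 1 for the second set, with a p-value and FDR listed as 0. The exon is number 37 of 40 and touches codons 1917 to 1932 of 2157, in the last part of the tail. It adds 16 codons with no stop codon in frame, and both forms are annotated.

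Elsewhere in MYO9B no difference was called. In the authors' deposited table, an exon of 90 nt at codons 444 to 473 had 0.049 at p = 0.541 and a 114-nt exon at codons 740 to 778 had 0.095 at p = 0.827. Of 6 motor events listed at a difference of exactly 1 in either direction, MYO9B was the one that was called, beside 19 of 533 over the table (3.56%). The other 5, in KIF3A, KIF9, KIF12, MYH3 and DYNC1I1, had p = 1 in the authors' deposited table.

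MYO9A and MYO5A were also among the uncalled events with the lowest p-values. MYO9A, the other class IX myosin, had -0.251 for a 213-nt exon at FDR = 0.0745 in the authors' deposited table. MYO5A, the class V myosin that carries melanosomes and vesicles, had -0.141 for an 81-nt exon at FDR = 0.223 in the authors' deposited table. That exon lies in the tail, at codons 1320 to 1347 of 1855.

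Class II myosin heavy chains, the contractile myosins, had 9 events in MYH3, MYH10 and MYH14 and 0 calls, beside 5.15% in the table. An unadjusted p-value under 0.05 was found for 1 of the 9 (11.1%, against 12% of all events). That event was a 74-nt exon of MYH10, the heavy chain of nonmuscle myosin IIB, which had -0.143 with FDR = 0.0776 in the authors' deposited table and has no coding base in the matched transcript. The 30-nt MYH10 exon, which inserts into a loop of the head in neurons, stood at 0.008 with p = 1 in the authors' deposited table. MYH14's 24-nt exon, an insert in the head of nonmuscle myosin IIC, stood at -0.068 with p = 0.531 in the authors' deposited table. Both were named after their values were seen.

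Myosin light chains had 8 events in MYL6, MYL6B and MYL12A, of which 2, both in MYL6 (ENSG00000092841), were called (25%, beside 5.15%). MYL6 encodes the essential light chain of nonmuscle and smooth muscle myosin II. In the authors' deposited table, its 108-nt exon had 0.164 with FDR = 1.6e-07 and the 36-nt exon 0.165 with FDR = 0.000717, both higher in the first set. A 144-nt exon that spans them had 0.079 with FDR = 7.59e-06 in the authors' deposited table, short of the minimum difference. A 125-nt exon that ends where the 36-nt exon ends had -0.002 at p = 0.626 in the authors' deposited table. These 4 events share a skipping junction, so they are not separate observations.

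The last MYL6 exon listed, of 45 nt (chr12:56554410-56554454), is the one by which the light chain's C-terminus differs between smooth muscle and nonmuscle forms. The authors' deposited table gave it FDR = 1.88e-10, the lowest of any motor event except MYO9B, at a difference of -0.034. Its size kept it from being called, and its sign was opposite to that of the other MYL6 exons with an FDR under 0.05.

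Exons of at most 30 nt numbered 10 of the 189 motor exons (5.29%), against 429 of the 27483 exons of the table (1.56%). Of the 10, 2 were called, those of KIF3A (9 nt) and KIFC3 (29 nt), beside 10% of the 429. The other 8 had absolute differences under 0.1 in the authors' deposited table, except a 27-nt exon of KIF1A with 0.178 at p = 0.0552. They included a 9-nt exon of MYO5A at 0.08, exons of 15 and 21 nt of DCTN1 at -0.003 and 0.025, and a 27-nt exon of MYO6 at 0.026 in the authors' deposited table. This length limit was set after the values were seen.

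Many large differences were not called, in motor genes as over the table. Of 22 motor events that differed by 0.3 or more in either direction in the authors' deposited table, 7 were called (31.8%) and 15 were not, and 13 of those 15 had a p-value of 1 (86.7%). Over all events of that size, 727 of 3442 were called (21.1%), and 79.3% of those not called had a p-value of 1. The 2 others were the KIF21A 39-nt event described above and a 51-nt KLC1 event with 0.486 at p = 0.687 in the authors' deposited table.

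The choice of genes did not use the length or coding status of an exon, though all motor genes code for proteins. Lengths divisible by 3 made up 52.4% of the 189 motor exons and 40.7% of all exons in the table, and exons of at most 51 nt made up 14.3% and 7.2%. Of the exons matched to GENCODE 29, 82.8% of 174 motor exons and 66.1% of 24785 in all were fully coding in a protein-coding transcript. The table is not limited to genes that code for proteins, so its coding share is not a like comparison. These are descriptions of the listed exons without a test.

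Among the 12 called motor exons, 8 had a length divisible by 3 (66.7%), against 51.4% of the 177 not called and 46% of all called exons in the table. The form without the exon was annotated for 10 of the 12 (83.3%) and for 39% of those not called. Over the whole table, the skipping form was annotated for 76.8% of called exons and 51% of all exons. Fully coding were 11 of the 12 called exons (91.7%), the exception being that of KIFC3, against 82.1% of the matched motor exons not called and 58.2% of all matched called exons. The share over all called exons has the same limit.

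Called exons lay in all parts of the proteins. With the coding sequence cut into 3 equal parts, 4 of the 11 coding ones began in the first part, 2 in the middle part and 5 in the last part. For the 130 coding motor exons that were not called and could be placed, these numbers were 48, 39 and 43.

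**Figure D4:**
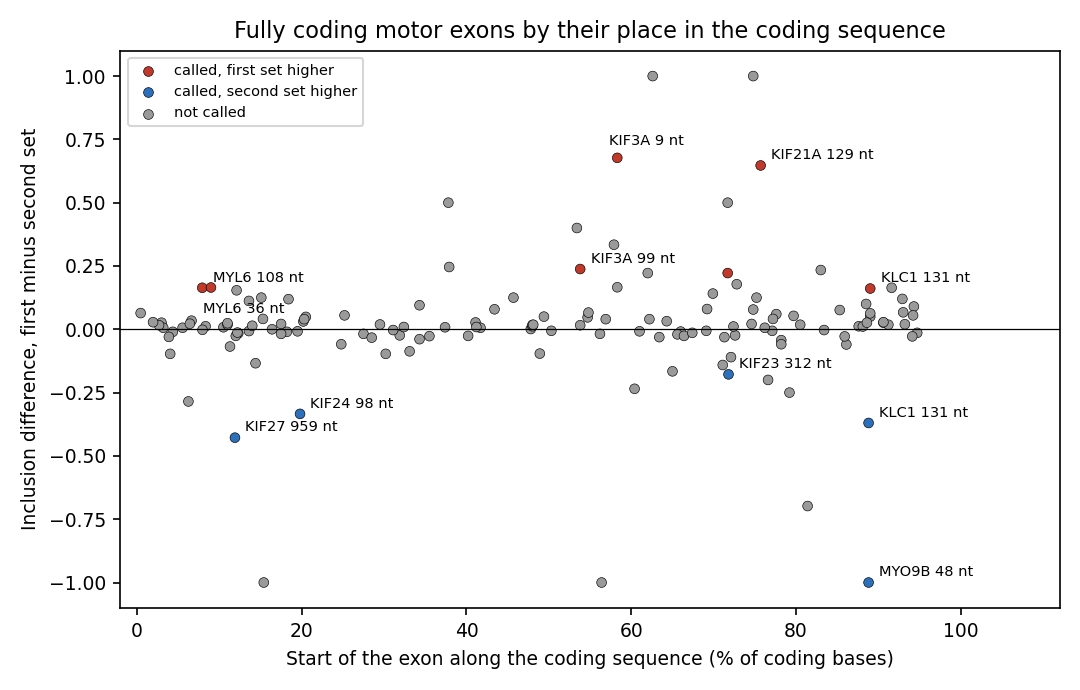
Each point is an event of a fully coding motor exon, placed by where the exon starts along the coding sequence of its matched transcript (% of coding bases) and by the inclusion difference (first minus second set) in the authors' deposited table. The called exons of MYL6, KIF27 and KIF24 start before 20% of the coding sequence, those of KIF3A between 50% and 60%, and those of KIF23, KIF21A, MYO9B and KLC1 after 70%.

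The element GCATG was searched on the transcribed strand of the exons themselves. It occurred in 20 of 174 motor exons with a sequence (11.5%) and in 11.6% of 24785 exons of the table, at median lengths of 105 and 117 nt. Among the 12 called motor exons it occurred in 2, among them the 959-nt exon of KIF27. The introns beside the exons, where RBFOX proteins also bind, were not searched because no genome sequence of this build was used. A match that spans a splice site was missed for the same reason.

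Genes that work with the motors were taken from a list of 52 cargo adaptors, regulators and further dynactin subunits, of which 42 had events. A call was made in 9 of the 42 (21.4%, beside 13.7% of all genes) and on 12 of their 149 exons (8.05%, beside 5.73%). The second set was higher for 10 of the 12 exons and the first set for 2. Over the table, the second set was higher for 729 called exons (2.65% of all exons) and the first for 846 (3.08%). The 10 include overlapping PPP1R12A exons of 132 and 168 nt, and KTN1 exons of 87 and 90 nt. Each of these pairs shares a skipping junction, so its exons are not separate observations. Whether this split differs from that of the motor exons was not tested.

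Several of these genes act on dynein, whose own subunits had no call. For NDEL1, which regulates dynein together with LIS1, the authors' deposited table gave -0.169 with FDR = 1.06e-06 for an 87-nt exon and -0.23 with FDR = 0.0171 for a 35-nt exon. SPDL1, which recruits dynein to kinetochores, had -0.13 with FDR = 8.92e-10 for a 77-nt exon in the authors' deposited table. NIN, a centrosomal dynein adaptor, went the other way, with 0.555 and FDR = 2.89e-05 for a 54-nt exon in the authors' deposited table. Most of these exons are not fully coding in the matched transcripts. The NDEL1 87-nt exon and the NIN exon have 0 coding bases. The SPDL1 exon has 24, in a transcript of the nonsense-mediated decay class, and only the NDEL1 35-nt exon is fully coding.

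Partners of kinesin-1 and of myosin II completed the list. SPAG9, a scaffold between vesicles and motors, had 0.335 with FDR = 0.000432 for a 42-nt exon in the authors' deposited table. KTN1, a kinesin-binding protein of the endoplasmic reticulum, had -0.216 and -0.105 for exons of 87 and 90 nt, and PLEKHM2, which links kinesin-1 to lysosomes, had -0.22 for a 60-nt exon in the authors' deposited table. PPP1R12A, the targeting subunit of myosin phosphatase, had -0.581 and -0.5 for overlapping exons of 132 and 168 nt, and its relative PPP1R12C had -0.266 for a 131-nt exon in the authors' deposited table. CDC42BPA, a kinase of the myosin light chain pathway, had -0.113 for a 105-nt exon with FDR = 0.0459 in the authors' deposited table.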

How the data were processed

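RNA-seq of 4 HEK293T clones was analysed through 1 table of skipped-exon events, in the column layout of rMATS. STAR 2.7.3a and hg19 are named in the submitters' processing notes; the splicing tool's version, its annotation and its read filters are not given in the sources used here. In the deposited table, the inclusion difference is a score from -1 to 1, read as first minus second set as rMATS defines it, beside the authors' p-value and FDR; per the file headers, effective lengths are other values, of 94 to 188 nt. The deposited FDR equals a Benjamini-Hochberg adjustment over all 31408 events (largest gap 1.11e-16). The 6 columns of values per library match no label and were not used, so no model was fitted here and the p-values are the authors', with 2 libraries per set.

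Members were chosen by gene symbol. Members, lists and thresholds were chosen with earlier results of these data known. Exons were collapsed by chromosome, strand, start and end, and an exon's direction is that of its called event with the lowest p-value. Named events were all called ones, all of KIF21A and MYO9B and the 10 uncalled ones with the lowest p-value; others were named after their values were seen. The results of 1 motor gene with a called exon enter the counts but are not reported here. Exons were matched to GENCODE 29 (on GRCh38) by gene identifier, exon length and both intron lengths, without coordinates, for 183 of 206 events; codon numbers are those of the matched transcript with the longest complete coding sequence. Of 9072 genes found in both, 859 lie within their GRCh38 bounds. Tested on simulated data, the call rule found 200 of 200 events given a change in a table of 31408 and 2 without one. How many true changes the rule finds or misses in these libraries was not tested. Alternatives were an FDR limit of 0.01 or 0.1, no minimum difference or one of 0.2, a Bonferroni limit, corrections for events per exon or gene, and leaving out p-values of 1. Python 3.11.15, pandas 2.3.3, numpy 2.4.6 and matplotlib 3.10.9 were used.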

Additional observations from a re-analysis of the deposited data

How the results depend on the processing

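Only Bonferroni correction over the table moved a count by more than 1.5 times: 5 motor events on 5 exons in 5 genes passed (2.43% of motor events, against 1.5% of all events), namely MYO9B, MYL6 (108 nt), KIF3A (9 nt), KIF27 and KIF21A, and 3 adaptor genes. A stricter limit can only lower a count. Over the other limits, called motor events ranged from 9 (minimum difference 0.2) to 17 (FDR under 0.1), exons from 9 to 16 and genes from 8 to 13. Correcting for the number of events per exon gave 11 exons, and 1 exon per gene gave 8 genes (12.1%, against 12.3% of all genes). Without events at a p-value of 1, 13 of 94 motor events were called (13.8%, against 10.6%). Of the 13 called events, 11 passed at an FDR under 0.01 and 9 at a minimum difference of 0.2. Of the 17 named events that were not called, 4 passed at an FDR under 0.1 and 3 without a minimum difference. Settings for the gene counts other than 1 exon per gene were added after the data were seen. No paired analysis was possible because no replicate number stands in the columns; leaving out a library was not run for the same reason, and the search for GCATG in introns was not run.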

Other observations

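Among the motor events, 11 pairs in 8 genes were versions of an exon that share one end and the skipping junction. The difference had the same sign in 10 pairs. The exception was MYL6, where the called 36-nt exon had 0.165 and a 125-nt version -0.002 at p = 0.626 in the authors' deposited table. In KIF23, exons of 79 and 82 nt differ by 3 nt at their start and had differences of 0.09 and 0.055 in the authors' deposited table. In DYNC2LI1, exons of 69 and 72 nt likewise differ by 3 nt and had 0.018 and 0.017, and in KIFC3, exons of 96 and 105 nt had 0.4 and 0.222, each at p = 1 in the authors' deposited table. KIF18B exons of 526 and 553 nt had -0.02 and -0.014 in the authors' deposited table. Both versions of a pair share junction reads, so the signs are not independent.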
